A study of Homo sapiens with 6 samples.

Results

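S100 proteins and annexins were followed in A549 cells, a human lung adenocarcinoma line, after silencing of FSCN1, which encodes fascin, a protein that bundles actin filaments. The members were all protein-coding genes of the count table whose symbol is S100 followed by a letter and an optional number, or ANXA followed by a number. This gave 30 genes, 18 S100 genes and 12 annexin genes, of 17075 protein-coding genes and 30230 genes in all. Polyadenylated RNA was sequenced in 3 control libraries (NC) and in 3 libraries made after silencing (siFSCN1). Both groups were the same unsorted cell line, the labels name a control plasmid for NC where the methods describe a scrambled siRNA, and the siFSCN1 libraries came from a single siRNA, so that an effect of FSCN1 loss and an effect of that siRNA cannot be told apart. The study calls the libraries biological replicates without saying that they were separate cultures, and the p-values measure the spread between these libraries.

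S100 proteins are small, mostly dimeric proteins of the EF-hand type, which change shape on binding calcium and then grip a partner protein. Annexins bind acidic membrane lipids in the presence of calcium through a folded core, and several of them offer their N-terminal tail to an S100 dimer. The best known of these complexes is that of S100A10 with ANXA2, which sits under the plasma membrane and brings together plasminogen and its activators. In epithelial cells both families are tied to membrane repair, the cortical actin skeleton and secretion.

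Each gene had a raw count and an FPKM value, which divides the fragments by the length of the gene and the depth of the library and lets levels be set side by side between genes. Between 27967301 and 36560919 counts were held by each library, at which 3 counts, taken as the limit of detection, are worth 0.0872 to 0.114 CPM, the count scaled to the TMM library size. FSCN1 had 44.98, 47.24 and 45.99 FPKM in NC and 4.46, 2.82 and 3.19 FPKM in siFSCN1, a log2 fold change of -3.89 (SE 0.0937, edgeR adjusted p = 8.1e-16). Adjusted p-values came from edgeR's quasi-likelihood test on the counts of 17076 genes with Benjamini-Hochberg adjustment over all of them. "Rose" and "fell" are used of genes with an adjusted p under 0.05, and a gene is called higher or lower where it also moved at least 2-fold. Of 13 lung epithelial and A549 markers in the table, KRT8, KRT18 and AKR1B10 stood highest, while the alveolar markers were low, with 0 to 5 counts for NKX2-1 and 7 to 13 for SFTPC. Of the 12 markers tested, 5 rose, among them CDH1 (log2 fold change 1.35), MUC1 (1.42) and the alveolar protease NAPSA (1.78, at 0.153 and 0.597 FPKM), and 5 fell, among them KRT7 (-1.19), KRT18 (-0.99) and KRT8 (-0.88). The summed level of these 13 markers lay between 26443 and 29242 CPM in NC and between 18835 and 20200 CPM in siFSCN1, most of it from the keratins that fell, and its part in the results was not tested. Markers of myeloid, fibroblast and endothelial cells summed to at most 11.9, 5.74 and 0.353 CPM in any library. In a bulk sample, fewer cells of a type and less RNA per cell cannot be told apart.

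The promoters of S100A4, S100A3 and ANXA2 are shown because S100A4 and S100A3 overlap in the GENCODE v44 annotation and both fell. ANXA2 is shown as the annexin with the highest level in NC, which also fell. Each line gives the 100 bases before the RefSeq start site (GRCh38.p14, minus strand, written 5′ to 3′), with the letters TATAAA in capitals. The stretches lie at chr1:153545807-153545906 for S100A4, chr1:153549259-153549358 for S100A3 and chr15:60397987-60398086 for ANXA2. The S100A4 start site shown lies downstream of S100A3, so that a transcript from it does not overlap S100A3.
S100A4: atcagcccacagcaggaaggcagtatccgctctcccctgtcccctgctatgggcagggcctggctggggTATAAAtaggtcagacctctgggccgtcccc
S100A3: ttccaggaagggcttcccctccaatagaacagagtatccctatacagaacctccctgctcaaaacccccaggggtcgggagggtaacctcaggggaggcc
ANXA2: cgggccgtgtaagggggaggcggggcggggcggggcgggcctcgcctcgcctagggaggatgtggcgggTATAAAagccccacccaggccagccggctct
In S100A4 and in ANXA2 the first T of TATAAA stood at position -31 from the start site, the usual place of a TATA box, and the S100A3 stretch held no such letters. RefSeq promoters of 300 bases across the start site were found for 27 of the 30 members, taking the first start site listed for each gene. On either strand, TATAAA stood in 35.3% of 17 S100 promoters and 40% of 10 annexin promoters, against 12% of 27305 promoters of all genes. Of the genes with TATAAA, S100A4, S100A9 and ANXA2 fell. S100P, ANXA1, ANXA10 and ANXA11 did not pass the test, and S100A7, S100A12 and S100Z were not tested. A link of these letters to the changes was not tested. TGANTCA, the core of AP-1 sites, stood in 17.6% of the S100 promoters (S100A2, S100A3 and S100A12), in 10% of the annexin promoters (ANXA2) and in 7.76% of all. GGGCGG, the core of Sp1 sites, stood in 35.3% of the S100 promoters, 50% of the annexin promoters and 44.6% of all, and CCAAT in 17.6%, 30% and 35.7%.

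Of the 30 members, 26 passed the filter on low counts and were tested, 14 S100 genes and all 12 annexins. Among the S100 genes, 10 fell, 0 rose and 4 did not pass the test, and 4 of those that fell did so by at least 2-fold (S100A16, S100A3, S100A8 and S100A9). Without NC replicate 1, 8 fell and only the first pair was called. Over all genes tested, 33.2% fell and 35.1% rose, 4.85% fell by at least 2-fold and 11.7% rose by at least 2-fold. Annexins moved both ways. ANXA13, ANXA4 and ANXA7 rose, ANXA8, ANXA3, ANXA2, ANXA6 and ANXA5 fell, and 4 did not pass the test. ANXA13 was called higher and ANXA8 lower. Called in either direction were 4 of 14 S100 genes (28.6%) and 2 of 12 annexins (16.7%), where 16.5% of all genes tested were called, so that the annexin share lay close to that of all genes. The CPM values of NC and siFSCN1 did not overlap for 9 S100 genes, all lower in siFSCN1, and for 8 annexins, 5 lower and 3 higher. Of all genes tested, 71.3% did not overlap. The median log2 fold change was -0.57 over the 14 S100 genes, -0.14 over the 12 annexins and 0.031 over all genes tested.

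**Figure D1:**
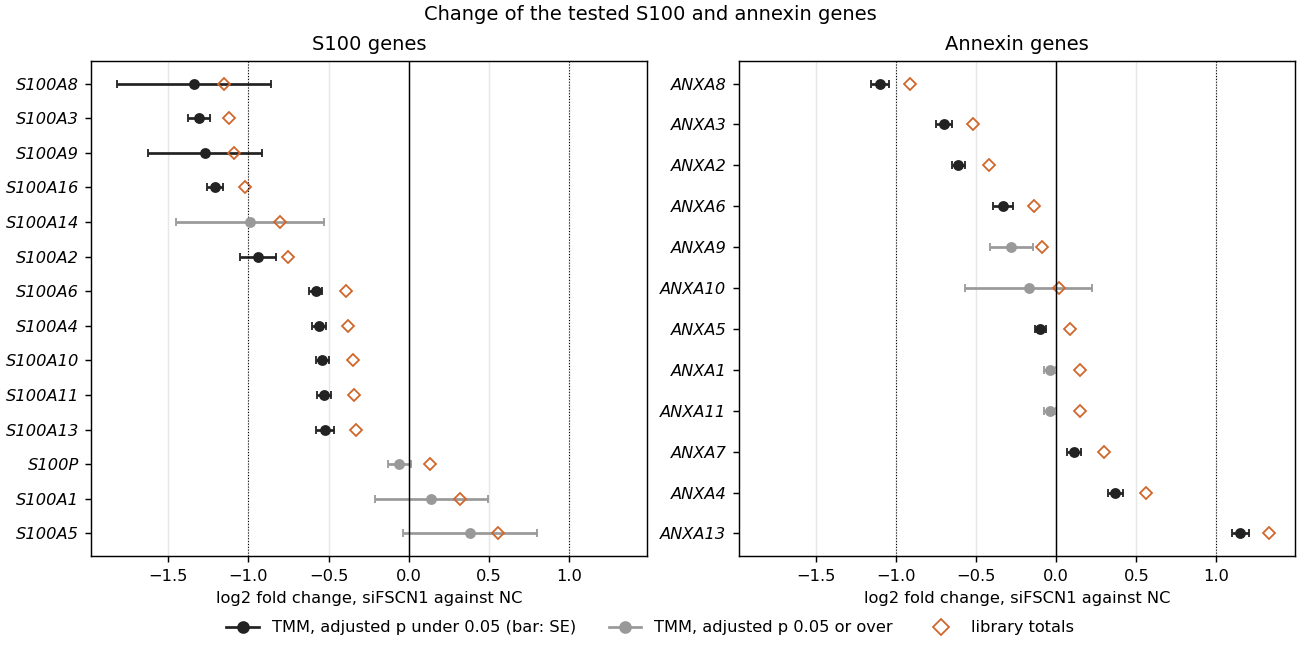
Log2 fold change of siFSCN1 against NC (horizontal axis) for the 14 tested S100 genes (left) and 12 tested annexins (right), with filled points and SE bars from the TMM-scaled edgeR fit, black at an adjusted p under 0.05 and grey otherwise, and open diamonds from a fit scaled by library totals alone. Every black S100 point lies left of 0, the annexins spread from -1.10 for ANXA8 to 1.15 for ANXA13, and ANXA5, ANXA1, ANXA11, ANXA10 and S100P have their diamond on the other side of 0.

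The scale of the fold changes bears on these directions. FPKM values carry no correction for a shift in the make-up of a library, whereas the fold changes use TMM scaling. With library totals in place of TMM the median log2 fold change of all genes was 0.22 and not 0.031. A member near 0 can therefore lie higher in siFSCN1 by FPKM and lower by TMM, as is stated where it occurs. Abundant genes also moved as a group: the 320 tested genes with a mean of at least 100 FPKM had a median log2 fold change of -0.41, those of 10 to 100 FPKM -0.26, those of 1 to 10 FPKM -0.0048 and those under 1 FPKM 0.40. In the same order, the medians were -0.55 over 8 members, -0.048 over 8, -0.94 over 5 and -0.17 over 5.

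Transcripts of 4 S100 genes made up 93.6% to 94.7% of the summed S100 FPKM in every library. These were S100A6, S100A10, S100A4 and S100A11, which ranked 22, 33, 37 and 51 among 29899 genes by mean FPKM, and all of them fell by a like amount. The S100 genes together took 0.529% ± 0.00874 of all counts in NC libraries and 0.401% ± 0.0152 in siFSCN1 libraries (SD, n = 3). For the 12 annexins these shares were 0.716% ± 0.00486 and 0.648% ± 0.00594 (SD, n = 3). In summed FPKM the S100 genes went from 4772 ± 86.5 to 3611 ± 210 and the annexins from 820 ± 3.26 to 790 ± 11 (SD, n = 3). The S100 sum was lower in each siFSCN1 library than in any NC library, by both measures.

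S100A6 (ENSG00000197956.10), a calcium sensor of dividing cells that binds the ubiquitin ligase adaptor CACYBP, had 1662.03, 1613.0 and 1686.93 FPKM in NC and 1297.23, 1256.86 and 1177.34 FPKM in siFSCN1. The groups were apart, and its log2 fold change was -0.58 (SE 0.0405, edgeR adjusted p = 5.0e-10). S100A10 (ENSG00000197747.9), the S100 protein that no longer binds calcium and is held in its active shape, had 1079.75, 1060.65 and 1053.77 FPKM in NC against 873.22, 819.34 and 778.2 FPKM in siFSCN1. All 3 siFSCN1 libraries lay under NC, with a log2 fold change of -0.54 (SE 0.0408, edgeR adjusted p = 1.5e-09). For S100A4 (ENSG00000196154.12), which binds the heavy chain of non-muscle myosin IIA and is known from metastatic cells, NC libraries had 1027.23, 945.37 and 1015.21 FPKM and siFSCN1 libraries 806.93, 739.14 and 724.02 FPKM. These ranges did not meet, and the log2 fold change was -0.56 (SE 0.0435, edgeR adjusted p = 1.9e-09). S100A11 (ENSG00000163191.6), a partner of ANXA1 in membrane repair, had 744.98, 761.35 and 762.56 FPKM in NC and 629.11, 600.1 and 539.3 FPKM in siFSCN1. It too was lower in every siFSCN1 library, with a log2 fold change of -0.53 (SE 0.0448, edgeR adjusted p = 7.4e-09). Once the trend of fold change with abundance over all genes was taken out, the log2 fold changes of these 4 genes were -0.17, -0.15, -0.19 and -0.19 for S100A6, S100A10, S100A4 and S100A11, still lower at an adjusted p under 0.05.

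**Figure D2:**
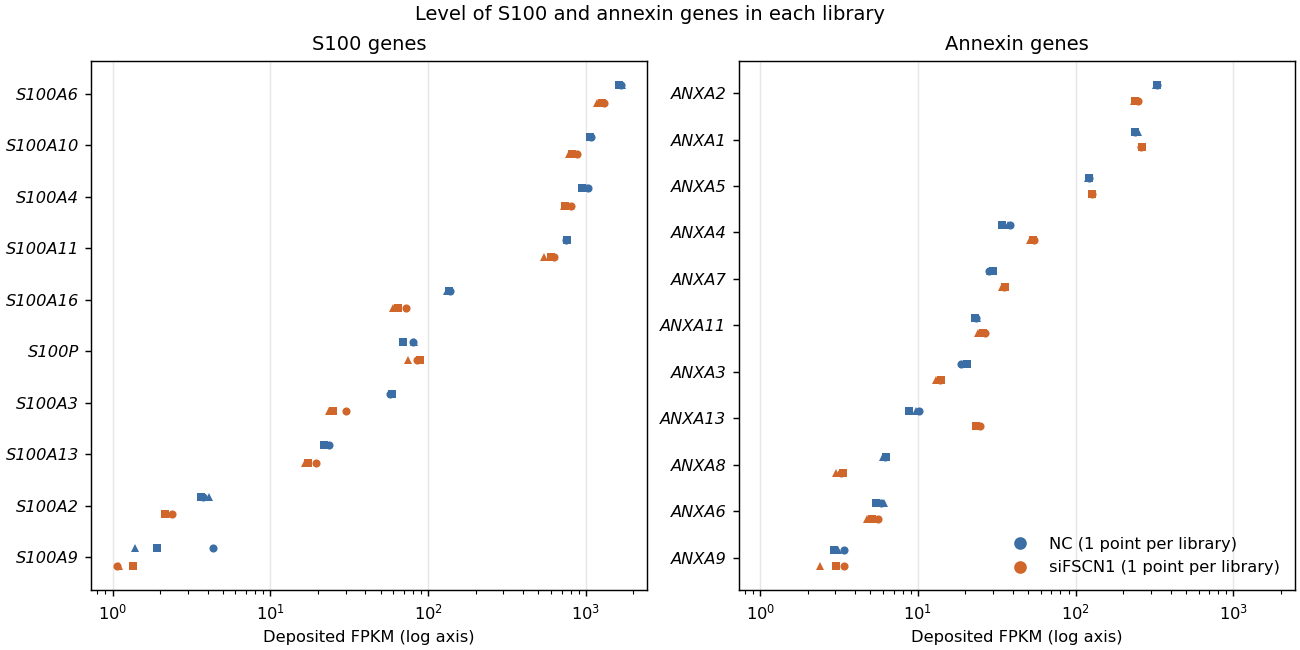
Deposited FPKM (horizontal log axis) of the 10 S100 genes (left) and 11 annexins (right) with a mean of at least 1 FPKM in a group, 1 point per library, NC in blue and siFSCN1 in orange, with circles, squares and triangles for replicates 1, 2 and 3. S100A6, S100A10, S100A4 and S100A11 stand highest and shift left together, S100A16 and S100A3 shift further, and ANXA13 moves right from about 9.54 to 23.7 FPKM.

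S100A16 and S100A3 fell the most among the S100 genes of more than 10 FPKM. S100A16 (ENSG00000188643.11), a widely expressed member, had 137.16, 134.73 and 131.87 FPKM in NC and 72.15, 64.21 and 60.03 FPKM in siFSCN1. No siFSCN1 library came near NC. The fall was 2.31-fold, a log2 fold change of -1.21 (SE 0.05, edgeR adjusted p = 3.7e-13). S100A3 (ENSG00000188015.10), a zinc-binding member best known from the hair cuticle, had 56.85, 58.66 and 58.97 FPKM in NC and 30.26, 25.05 and 23.63 FPKM in siFSCN1. Again the groups were far apart, with a fall of 2.48-fold and a log2 fold change of -1.31 (SE 0.0672, edgeR adjusted p = 6.7e-12). S100A3 was called lower in all 17 alternative fits. S100A16 was called in 16 of them and missed the 2-fold limit, at -0.94, with the abundance trend taken out. On GRCh38 (GENCODE v44), S100A3 (chromosome 1, 153547329 to 153549258) lies inside the span of S100A4 (153543613 to 153550136) on the same strand. Of 643 windows of 100 bases in the longest coding transcript of S100A3, 0 occurred in transcripts of S100A4 or other relatives. For the longest coding transcript of S100A4 it was 0 of 474. Shorter shared stretches were not looked for.

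S100A13 and S100A2 also fell, by less than 2-fold. S100A13 (ENSG00000189171.15), which takes part in the release of FGF1 from cells without a signal peptide, had 23.65, 21.93 and 22.75 FPKM in NC and 19.47, 17.42 and 16.65 FPKM in siFSCN1, without overlap. Its log2 fold change was -0.52 (SE 0.0571, edgeR adjusted p = 2.3e-07). Its gene overlaps S100A1 on the opposite strand, and whether strand was used in counting is not given in the sources used here. S100A2 (ENSG00000196754.13), a nuclear member found in basal epithelial cells, had 3.74, 3.61 and 4.09 FPKM in NC and 2.38, 2.16 and 2.17 FPKM in siFSCN1. The groups were separate, the fall was 1.91-fold and the log2 fold change -0.94 (SE 0.115, edgeR adjusted p = 9.8e-07).

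S100P (ENSG00000163993.7), first found in placenta and abundant in many adenocarcinomas, was the one well expressed S100 gene that did not pass the test. It had 80.45, 68.9 and 81.34 FPKM in NC and 85.22, 89.13 and 74.38 FPKM in siFSCN1, ranges that overlapped. The log2 fold change of -0.059 (SE 0.0709, edgeR adjusted p = 0.471) turned positive in 6 of 17 alternatives, among them upper quartile scaling and library totals. S100P lies on chromosome 4, away from the S100 cluster of chromosome 1.

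On GRCh38 chromosome 1, 15 of the 18 S100 genes lay between 151982915 and 153632039, a stretch of 1649 kb in band 1q21. Of these 15, 13 were tested, 10 fell and 0 rose, with a median log2 fold change of -0.58. The stretch also held 23 other protein-coding genes of the table, among them members of the epidermal differentiation complex such as IVL and the SPRR genes, and 0 of these 23 had enough counts to be tested. Only S100 genes were expressed well enough in the stretch for a test. S100B on chromosome 21 and S100Z on chromosome 5 were not tested either.

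S100A8 and S100A9, which join into calprotectin, the main calcium-binding protein of neutrophils and of inflamed epithelium, were called lower, and this rested on 1 library. S100A9 (ENSG00000163220.11) had 4.33, 1.9 and 1.39 FPKM in NC (91, 36 and 34 counts) and 1.06, 1.35 and 1.1 FPKM in siFSCN1 (23, 29 and 24 counts). All NC libraries lay above siFSCN1, NC replicate 1 by far the most, and the log2 fold change was -1.27 (SE 0.354, edgeR adjusted p = 0.00389). S100A8 (ENSG00000143546.10) had 62, 19 and 14 counts in NC and 14, 18 and 11 counts in siFSCN1. NC replicate 1 was again the highest and the other libraries overlapped, with a log2 fold change of -1.34 (SE 0.482, edgeR adjusted p = 0.0204). Without NC replicate 1 the log2 fold changes were -0.64 for S100A9 (edgeR adjusted p = 0.0726) and -0.38 for S100A8 (edgeR adjusted p = 0.447), and neither gene was called. S100A8 also lost its call without siFSCN1 replicate 3 (log2 fold change -1.19, edgeR adjusted p = 0.0582). S100A7 (psoriasin), with 10, 4 and 3 counts in NC and 9, 2 and 9 counts in siFSCN1, and S100A12 (calgranulin C), with 7, 0 and 1 counts against 1, 0 and 0, were too low to be tested. Both were also highest by CPM in NC replicate 1.

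Genes of stratified epithelium were high in the same library. KRT5 had 168, 42 and 58 counts in NC and 36, 22 and 28 counts in siFSCN1, and KRT14 had 165, 67 and 42 counts against 40, 42 and 24. Of 8 keratinocyte markers in the table, 7 had their highest CPM in NC replicate 1, as had 10 of 16 genes of the epidermal differentiation complex outside S100. Of the 8 markers, 5 stood there more than 2-fold above the other NC libraries, KRT1 and DSG3 among them on 8 and 6 counts. KRT10 hardly differed, at 117, 106 and 116 CPM in NC. The exception among the 8 was TP63, a transcription factor of basal cells, with 0.415, 0.228 and 0.497 CPM in NC and 2.33, 2.22 and 1.8 CPM in siFSCN1. TP63 rose with a log2 fold change of 2.43 (SE 0.279, edgeR adjusted p = 4.0e-07). The other 5 of the 6 markers tested fell, and 4 of them were called lower. These 4 were KRT5, KRT14, KRT6A and KRT6B, with log2 fold changes of -1.83, -1.57, -1.49 and -1.91. The CPM ranges of KRT14 and KRT6B overlapped between groups. KRT10 fell with a log2 fold change of -0.35 (edgeR adjusted p = 8.0e-06). Over the 8 keratinocyte markers the summed level was 114 to 137 CPM in NC and 87.8 to 100 CPM in siFSCN1, most of it KRT10. Leaving out KRT10, the sum was 20.2, 7.9 and 5.49 CPM in NC and 6.48, 5.44 and 4.74 CPM in siFSCN1. The summed counts of the 16 genes of the complex were 112, 39 and 42 in NC and 26, 21 and 21 in siFSCN1. The part of these transcripts in the S100A8 and S100A9 calls was not tested. Among myeloid markers the sum was 9.45 to 11.4 CPM in NC and 9.45 to 11.9 CPM in siFSCN1, most of it CD14. In NC replicate 1 the sum was 9.45 CPM, with 5.85 CPM from CD14 and 2.28 CPM from ITGAM. PTPRC had 0 counts and LYZ 5 counts in that library. The 3 myeloid markers tested moved both ways. CD14 rose (log2 fold change 0.40), ITGAM fell (-0.67) and CD68 was called lower (-1.24, edgeR adjusted p = 0.00197). CD68 had 28, 37 and 60 counts in NC and 24, 23 and 12 counts in siFSCN1. The part of myeloid cells in the S100A8 and S100A9 calls was not tested either.

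**Figure D3:**
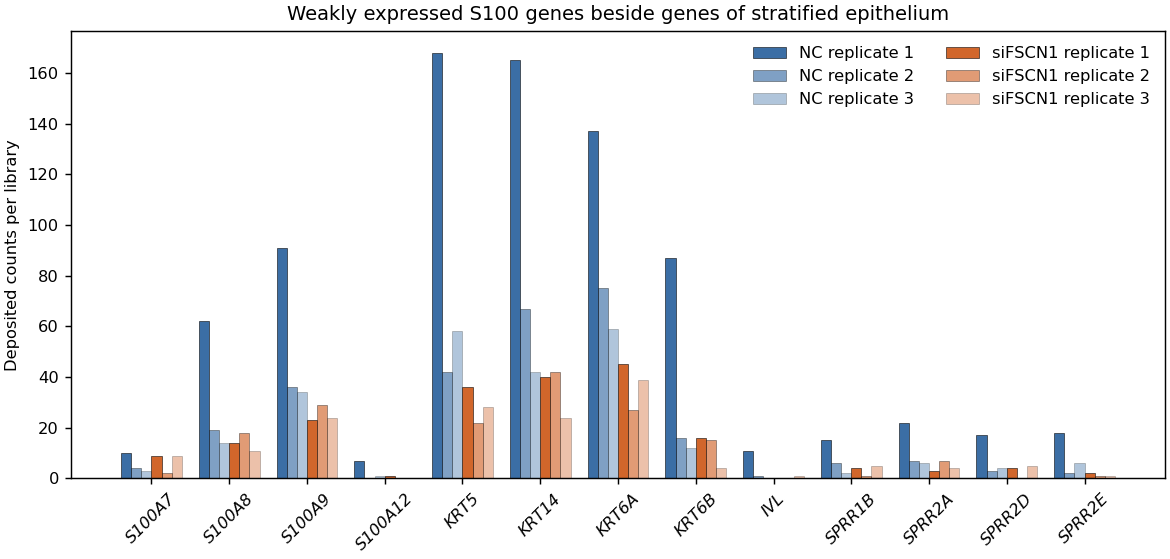
Deposited counts per library (vertical axis from 0) of S100A7, S100A8, S100A9 and S100A12 beside 9 genes of stratified epithelium, with NC replicates 1 to 3 in dark to light blue and siFSCN1 replicates 1 to 3 in dark to light orange. NC replicate 1 gives the highest bar for each of the 13 genes, with 62 counts for S100A8 and 168 counts for KRT5. TP63, KRT10 and the genes of the epidermal differentiation complex not highest in that library are not shown.

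The other S100 genes were weakly expressed. S100A14, an epithelial member, had 16, 20 and 11 counts in NC and 6, 6 and 15 counts in siFSCN1, and its log2 fold change of -0.99 (SE 0.46) missed the threshold with an edgeR adjusted p of 0.0655. The siFSCN1 replicate 3 library lay within the NC range, and without it the log2 fold change was -1.57 (edgeR adjusted p = 0.0162), as it was -1.29 (edgeR adjusted p = 0.0272) without NC replicate 3. S100A1, the member of heart and skeletal muscle, had 10 to 16 counts in NC and 13 to 20 in siFSCN1, and S100A5 had 8 to 17 against 12 to 23. Neither passed the test, with edgeR adjusted p of 0.745 and 0.436. S100B, the glial member, and S100Z each had a single count in 1 of the 6 libraries.

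Of the annexins, ANXA2, ANXA1 and ANXA5 stood above 100 FPKM in every library. ANXA2 (ENSG00000182718.18), the partner of S100A10, had 325.44, 326.58 and 322.77 FPKM in NC and 246.96, 237.02 and 233.88 FPKM in siFSCN1. NC libraries differed little among themselves and all lay above siFSCN1, with a log2 fold change of -0.61 (SE 0.0386, edgeR adjusted p = 1.2e-10) and of -0.16 once the abundance trend was taken out. ANXA1 (ENSG00000135046.14), a glucocorticoid-induced protein whose N-terminal peptides act on formyl peptide receptors, had 237.32, 237.56 and 246.37 FPKM in NC and 260.65, 263.55 and 262.49 FPKM in siFSCN1. By FPKM it was higher in all 3 siFSCN1 libraries, whereas its log2 fold change was -0.04 with TMM (SE 0.036, edgeR adjusted p = 0.329), 0.077 with upper quartile scaling and 0.15 with library totals. ANXA2 stood above ANXA1 in each NC library and below it in each siFSCN1 library by FPKM, whatever the library scaling. This order rests on the gene lengths, since the annotated exons span 11574 bases for ANXA2 and 4453 for ANXA1 while their longest coding transcripts have 2069 and 2209 bases. By CPM, ANXA2 stayed above ANXA1 in all 6 libraries, at 4660 to 4785 against 1331 to 1369 CPM in NC and 3042 to 3161 against 1284 to 1333 CPM in siFSCN1. ANXA5 (ENSG00000164111.15), which binds phosphatidylserine and serves as a probe of dying cells, had 121.6, 122.13 and 119.71 FPKM in NC and 126.69, 126.42 and 126.51 FPKM in siFSCN1. Its log2 fold change was -0.10 with TMM (SE 0.0349, edgeR adjusted p = 0.0141) but 0.084 with library totals, so its direction is set by the scaling.

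ANXA13 (ENSG00000104537.17), an annexin of intestinal and kidney epithelium that is anchored in membranes by a myristoyl group, rose the most. It had 10.13, 8.78 and 9.7 FPKM in NC and 24.55, 23.35 and 23.26 FPKM in siFSCN1. Each siFSCN1 library held more than any NC library, a rise of 2.21-fold with a log2 fold change of 1.15 (SE 0.0536, edgeR adjusted p = 1.9e-12). ANXA13 was called higher in all 17 alternatives. ANXA4 (ENSG00000196975.16), a membrane-ordering annexin of secretory epithelia, had 38.39, 34.09 and 37.3 FPKM in NC and 54.14, 53.73 and 51.45 FPKM in siFSCN1. It rose without overlap of the groups, with a log2 fold change of 0.37 (SE 0.0438, edgeR adjusted p = 5.7e-07). ANXA7 (ENSG00000138279.16), an annexin linked to membrane fusion, had 28.11, 29.98 and 28.42 FPKM in NC and 35.3, 35.39 and 33.9 FPKM in siFSCN1. Although its FPKM values were apart, the log2 fold change was 0.11 (SE 0.0431, edgeR adjusted p = 0.0332), and 7 of 17 alternatives, DESeq2 and RLE scaling among them, left it short of the threshold, with adjusted p of up to 0.195 when siFSCN1 replicate 2 was left out. The other leave-outs that lost it were those of NC replicates 1 and 3 and siFSCN1 replicate 1.

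ANXA8 (ENSG00000265190.7) fell the most among the annexins. It had 6.17, 6.24 and 6.01 FPKM in NC and 3.27, 3.35 and 3.04 FPKM in siFSCN1. With the groups far apart, the log2 fold change was -1.10 (SE 0.0536, edgeR adjusted p = 3.5e-12), which came under 2-fold with upper quartile scaling and library totals. ANXA8 has a near copy, ANXA8L1, and 69.3% of the 2075 windows of 100 bases in its longest coding transcript occur unchanged there. Per the methods only reads with a unique position were kept, so that reads of these stretches may be missing from both counts. ANXA8L1 went from 10.9 ± 0.14 to 8.51 ± 0.163 FPKM (SD, n = 3) with a log2 fold change of -0.52 (SE 0.0492, edgeR adjusted p = 2.7e-08). The counts of both genes added up, without any reads so dropped, were worth 77.6 ± 1.8 CPM in NC and 45.2 ± 1.19 CPM in siFSCN1 (SD, n = 3). The sum thus fell short of the 2-fold limit that ANXA8 alone met.

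ANXA3 (ENSG00000138772.13), an annexin studied in neutrophils and in drug-resistant tumors, had 18.65, 20.56 and 20 FPKM in NC and 13.74, 13.99 and 13.02 FPKM in siFSCN1. It fell in all libraries against NC, with a log2 fold change of -0.70 (SE 0.0472, edgeR adjusted p = 2.6e-10). ANXA6 (ENSG00000197043.14), the annexin with a duplicated core, had 5.86, 5.4 and 6.06 FPKM in NC and 5.61, 5.14 and 4.72 FPKM in siFSCN1. Here the FPKM ranges overlapped, and the log2 fold change of -0.33 (SE 0.0619, edgeR adjusted p = 1.2e-04) was -0.16 and no longer past the threshold with limma on log2(FPKM + 0.1), where the adjusted p was 0.15. ANXA11 (ENSG00000122359.18), which tethers RNA granules to lysosomes, had 23.24, 22.84 and 23.73 FPKM in NC and 26.46, 25.78 and 24.09 FPKM in siFSCN1. Higher by FPKM, it had a log2 fold change of -0.038 with TMM (SE 0.0394, edgeR adjusted p = 0.41) and of 0.15 with library totals. ANXA9 (ENSG00000143412.10), an annexin that lacks working calcium sites, had 3.42, 2.94 and 3.11 FPKM in NC and 3.38, 3.02 and 2.38 FPKM in siFSCN1, ranges that overlapped, with a log2 fold change of -0.28 (SE 0.133, edgeR adjusted p = 0.0731). Without NC replicate 2 this was -0.33 (edgeR adjusted p = 0.0484) and without siFSCN1 replicate 1 it was -0.40 (edgeR adjusted p = 0.014). ANXA10, a gastric annexin, had 8 to 17 counts in NC and 11 to 12 in siFSCN1.

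Within a library the level of an S100 gene can be set against that of the annexin its protein binds, a ratio whose change between groups no library scaling alters, though its size rests on the gene lengths. The log2 ratios of 4 known pairs were compared by an exact two-sided permutation test, in which 3 against 3 libraries cannot give a p under 0.1. S100A6/ANXA11 was 71.5, 70.6 and 71.1 in NC and 49.0, 48.8 and 48.9 in siFSCN1, the tightest of the 4 and without overlap. S100A11/ANXA1 was 3.14, 3.2 and 3.1 in NC and 2.41, 2.28 and 2.05 in siFSCN1, also lower in each siFSCN1 library. S100A10/ANXA2 was 3.32, 3.25 and 3.26 in NC and 3.54, 3.46 and 3.33 in siFSCN1, higher but by far less. The log2 differences of these pairs were -0.54, -0.49 and 0.07, each with an exact permutation p of 0.1 and an adjusted p of 0.133 over the 4 ratios. S100A8/S100A9 overlapped between groups, at 0.347 ± 0.0868 in NC and 0.359 ± 0.0595 in siFSCN1 (SD, n = 3, exact permutation p = 0.9).

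**Figure D4:**
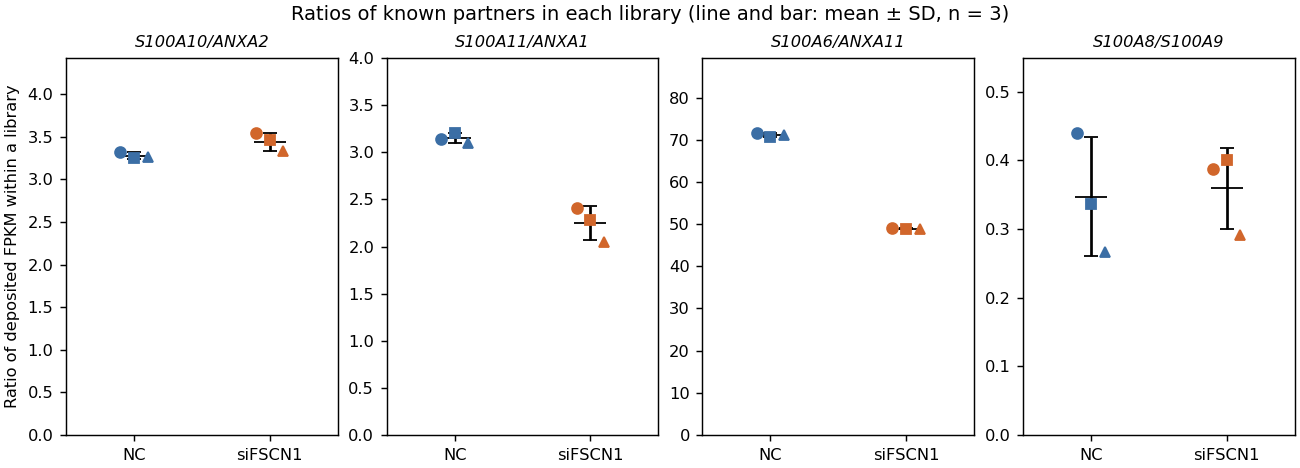
Ratio of deposited FPKM within a library (vertical axis from 0, dimensionless) for S100A10/ANXA2, S100A11/ANXA1, S100A6/ANXA11 and S100A8/S100A9, 1 point per library with circles, squares and triangles for replicates 1, 2 and 3, and a line and bar for the mean ± SD (n = 3). S100A11/ANXA1 and S100A6/ANXA11 lie lower in siFSCN1, S100A10/ANXA2 moves from 3.28 to 3.44, and S100A8/S100A9 overlaps.

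Other genes of the same pathways were taken from a list of partners and receptors, of which 20 of 26 were tested. Of these 20, 7 rose, 10 fell and 3 did not pass the test, with a median log2 fold change of -0.12. Among all genes tested, 35.1% rose and 33.2% fell. The share of the list that rose lay close to that of all genes, and the share that fell was larger. AGER, the receptor RAGE that binds several S100 proteins outside the cell, had 0.18, 0.36 and 0.3 FPKM in NC and 1.53, 1.6 and 1.53 FPKM in siFSCN1, on 14 to 27 and 121 to 124 counts. It rose in each siFSCN1 library, with a log2 fold change of 2.29 (SE 0.212, edgeR adjusted p = 2.3e-08). MUC1, a membrane mucin, rose from 0.497 ± 0.123 to 1.51 ± 0.147 FPKM (SD, n = 3), with a log2 fold change of 1.42 (SE 0.149, edgeR adjusted p = 1.2e-07). TAGLN2, the actin-binding transgelin-2, had 311.5, 297.32 and 301.12 FPKM in NC and 147.93, 126.99 and 122.86 FPKM in siFSCN1, a log2 fold change of -1.36 (SE 0.051, edgeR adjusted p = 9.9e-14). AGER, MUC1, TAGLN2 and PLAUR were the 4 genes of the 20 called changed, where 16.5% of all genes tested were called. PLAUR came under 2-fold with library totals and both limma fits and was not called by glmTreat, and AGER and MUC1 were not called by limma on log2(FPKM + 1).

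PLAU, PLAUR and PLAT, of the plasminogen system that meets S100A10 and ANXA2 at the cell surface, all fell. PLAU, the urokinase-type activator, had 32.4 ± 3.11 FPKM in NC and 20.4 ± 0.649 FPKM in siFSCN1 (SD, n = 3), with a log2 fold change of -0.83 (SE 0.0562, edgeR adjusted p = 3.0e-10). Its receptor PLAUR had 6.51 ± 0.658 and 3.34 ± 0.281 FPKM (SD, n = 3), a log2 fold change of -1.13 (SE 0.0712, edgeR adjusted p = 1.2e-10). PLAT, the tissue-type activator, was low at 0.317 and 0.183 FPKM and fell with a log2 fold change of -0.98 (edgeR adjusted p = 1.5e-04), which passed 2-fold in 4 of 17 alternatives, among them DESeq2 and the fits without NC replicate 3 (-1.08) and without siFSCN1 replicate 2 (-1.15). CACYBP, the partner of S100A6, fell from 33.0 ± 0.588 to 20.8 ± 0.907 FPKM (SD, n = 3), a log2 fold change of -0.83 (SE 0.0391, edgeR adjusted p = 2.0e-12). MYH9, the myosin heavy chain bound by S100A4, rose from 32.1 ± 0.703 to 46.6 ± 1.07 FPKM (SD, n = 3), with a log2 fold change of 0.37 (SE 0.0378, edgeR adjusted p = 7.4e-08). AHNAK, the large scaffold bound by S100A10 and ANXA2, had a log2 fold change of 0.00051 with TMM (edgeR adjusted p = 0.992), of -0.018 with RLE scaling and of 0.19 with library totals (edgeR adjusted p = 9.6e-04), so that its direction is set by the scaling.

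Of 37 other EF-hand calcium sensors, 31 were tested, of which 10 rose and 16 fell with a median log2 fold change of -0.19. The shares over all genes tested were 35.1% and 33.2%, so that a larger share of this list fell. Called were 3 of the 31, all lower. This is a smaller share than the 16.5% called over all genes, but a larger one than the 4.85% called lower. CALM2, which encodes calmodulin, fell from 124 ± 4.17 to 95.0 ± 1.15 FPKM (SD, n = 3), with a log2 fold change of -0.56 (edgeR adjusted p = 1.7e-10), while CALM3, which encodes the same protein, rose with 0.22 (edgeR adjusted p = 2.9e-05). PEF1 and CAPN2, of the penta-EF-hand group, were called lower. CAPN2, the large subunit of the calcium-activated protease m-calpain, fell from 47.4 ± 1.95 to 19.8 ± 1.46 FPKM (SD, n = 3), a log2 fold change of -1.42 (SE 0.0455, edgeR adjusted p = 1.6e-14), and PEF1 had one of -1.18 (SE 0.064, edgeR adjusted p = 1.5e-11), or -0.99 and under 2-fold with library totals. CALB1 was also called lower, at a mean of 0.05 FPKM in NC and 0.02 FPKM in siFSCN1. It had 11, 9 and 21 counts in NC and 6, 1 and 12 counts in siFSCN1. Its CPM ranges overlapped, and the call was close to the threshold (edgeR adjusted p = 0.0466).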

How the data were processed

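Polyadenylated RNA of A549 cells was sequenced in 3 NC and 3 siFSCN1 libraries, grouped by sample title. The authors deposited raw counts per gene (30230 genes) and FPKM values (29899 genes). Per the methods, the authors trimmed reads, used HISAT2 against GRCh38 and retained reads with a unique position, while the submitters' processing notes name TopHat2. The counting program, strand setting and annotation release used for these tables are not given in the sources used here.

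The members and gene lists were chosen with earlier results of these data known. Genes were filtered with filterByExpr, scaled by TMM and compared with edgeR's quasi-likelihood test without covariates (edgeR 4.0.16, R 4.3.3), with Benjamini-Hochberg adjustment over all genes tested. The authors used DESeq2, which was run as an alternative (DESeq2 1.42.0). Limma 3.58.1 was run on log2(FPKM + 0.1) and log2(FPKM + 1), fold changes then being on that scale. SE values follow from each gene's log2 fold change and F value. CPM values are counts scaled to TMM library size. The script was tested on simulated data. Further alternatives were RLE, upper quartile and library total scaling, glmTreat at 2-fold, a block for the replicate number, a filter at 1 count only, a stricter filter (1 CPM in 3 libraries and a mean of 10 counts), leaving out each library, and an offset for the loess trend (span 0.5) of fold change with abundance. Positions and overlaps came from GENCODE v44, in which 30147 of the 30230 identifiers and all 30 members were found, and promoters from RefSeq. Named were FSCN1, all members, their paralogs and pseudogenes, the called genes of the lists with a mean of at least 1 FPKM, and AHNAK, CACYBP, MYH9, PLAT, PLAU, PLAUR, CALM2 and CALM3. A gene that the rule also names is not reported here. CALB1 and the cell type markers given with values were named after their values were seen. Replicates differed by more than counting noise, the chi-square per degree of freedom being 2.95 to 7.49 for pairs within a group and 97 to 118 for pairs across groups. Detection limits cover counting error only.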

Additional observations from a re-analysis of the deposited data

How the results depend on the processing

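The number of S100 genes that fell stayed between 8 and 11 over all 16 alternatives that test the adjusted p alone. S100 genes called changed went from 4 to 2 with glmTreat, the stricter filter and both limma fits, and from 2 to 5 when a library was left out, with the 2 being without NC replicate 1. Annexins called went from 2 to 1 with upper quartile scaling, library totals, glmTreat and both limma fits, each time by loss of ANXA8, and were 2 whichever library was left out. Annexins that fell numbered 3 with both limma fits, and those that rose 6 with library totals and 6 with the abundance trend taken out, against 5 and 3. Over all genes, 1155 were called with glmTreat and 477 with limma on log2(FPKM + 1), against 2820, and 2854 to 3028 with a library left out. The share of higher calls was 70.6%, 69.1% with RLE, 78.9% with upper quartile scaling, 83.8% with library totals, 81.1% with limma on log2(FPKM + 0.1) and 54.6% with the trend taken out. Unless stated, the cause was not tested.

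Several log2 fold changes near 0 turned sign. With upper quartile scaling ANXA1 was at 0.077, ANXA11 at 0.08, ANXA5 at 0.015 and S100P at 0.059. With library totals they were at 0.15, 0.15, 0.084 and 0.13, and ANXA10 was at 0.015. With limma on log2(FPKM + 0.1) ANXA1, ANXA11, ANXA5, S100P and ANXA10 were at 0.13, 0.13, 0.063, 0.11 and 0.017, and with log2(FPKM + 1) at 0.13, 0.12, 0.062, 0.11 and 0.00088. With the trend taken out ANXA1, ANXA11, ANXA5 and S100P were at 0.35, 0.24, 0.22 and 0.054, and S100A1, S100A5 and ANXA2R at -0.31, -0.078 and -0.051. With a library left out, ANXA10 ran from -0.37 to 0.073 (highest without NC replicate 3), S100A1 from -0.002 to 0.27 (lowest without siFSCN1 replicate 3), S100P from -0.14 to 0.00093 (highest without siFSCN1 replicate 3) and AHNAK from -0.054 to 0.02. AHNAK rose past the threshold at 0.12 with upper quartile scaling, 0.19 with library totals, 0.16 with each limma fit and 0.31 with the trend taken out, and was at -0.018 with RLE, -0.029 with DESeq2, -0.0085 with no filter, -0.00017 with the replicate block, and -0.029, -0.017 and -0.054 without NC replicates 1 and 3 and siFSCN1 replicate 3. The log2 difference of S100A8/S100A9 lay between -0.11 and 0.25 with a library left out, at -0.11 without NC replicate 3 and -0.02 without siFSCN1 replicate 2.

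Same-numbered replicates did not deviate together (Pearson's r across genes of -0.0347, 0.0398 and -0.0841 for numbers 1, 2 and 3). With the replicate block 2827 genes, 4 S100 genes and 2 annexins were called. FSCN1 was called lower in all 17 alternatives, from -4.11 to -3.41.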

Other observations

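Relatives of the members that the symbol rule leaves out were also read. S100PBP, a nuclear protein that binds S100P, had 1.78, 1.92 and 1.88 FPKM in NC and 2.57, 2.55 and 2.58 FPKM in siFSCN1. It was higher in 3 of 3 siFSCN1 libraries, with a log2 fold change of 0.30 (SE 0.0536, edgeR adjusted p = 7.6e-05), while S100P itself did not pass the test. ANXA2P2, a processed pseudogene of ANXA2 on chromosome 9, had 8.25 ± 1.31 FPKM in NC and 5.64 ± 0.43 FPKM in siFSCN1 (SD, n = 3), with a log2 fold change of -0.71 (SE 0.126, edgeR adjusted p = 6.9e-05). Windows of 100 bases shared with relatives made up 14.6% of the longest coding transcript of ANXA2, mostly with ANXA2P2. Reads of these stretches may be missing from the counts of the 2 genes or not fully separated. ANXA2R, a gene named as a receptor of ANXA2, had 0.8 ± 0.0819 and 1.04 ± 0.0981 FPKM (SD, n = 3), with a log2 fold change of 0.22 (edgeR adjusted p = 0.255). S100A7A, the near relative of S100A7, had 3 counts in NC replicate 1 and 0 counts in the other 5 libraries.

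By FPKM, the order of levels among the 30 members changed little between groups. S100A6, S100A10, S100A4 and S100A11 held places 1 to 4 by FPKM in all 6 libraries. S100A16 was at place 7 in each NC library and at place 9 in each siFSCN1 library, and ANXA13 moved from place 16 to place 14. In NC the FPKM ranges of ANXA11 and S100A13 overlapped, as did those of ANXA8 and ANXA6. In siFSCN1 those of S100A10 and S100A4, of S100A3 and ANXA11, and of ANXA11 and ANXA13 overlapped. Further neighbours among the lower members overlapped too, such as ANXA9 and S100A9 in NC and ANXA8 and ANXA9 in siFSCN1.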
